A study of Mus musculus with 12 samples.

Results

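The genes described here are 9 mouse interferon-inducible GTPases: Gbp2, Gbp3, Gbp6, Gbp7, Irgm1, Irgm2, Igtp, Iigp1 and Tgtp1. They were chosen by name, as the probes that carry one of these symbols, among 34650 gene names on the array. The 9 genes had 13 probes, and 8 of the 9 genes passed the filter on dim probes that 16497 genes passed. Tgtp1 did not pass. The data come from 1-colour Agilent expression arrays of purified splenic B cells from female BALB/c mice aged 9 weeks. All cells, controls included, had received an antibody to CD40 (10 µg/ml) and the bacterial product LPS (2 µg/ml) for 4 days. The 4 groups of 3 arrays were wild type without IL-4, wild type with IL-4 (25 ng/ml), STAT6 knockout without IL-4 and STAT6 knockout with IL-4. The labels do not say whether the triplicates came from separate animals, so p-values measure the spread between these samples, which may be technical.

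Interferon-inducible GTPases are made in large amounts when interferons act on a cell, through factors of the STAT and IRF families, and they defend cells against microbes that live inside membrane-bound vacuoles. The guanylate-binding proteins (GBPs) are large GTPases that assemble into coats on such vacuoles and on bacteria. The immunity-related GTPases (IRGs) fall into regulators of the GMS type (Irgm1, Irgm2 and Igtp, also called Irgm3), which stay on the cell's own membranes, and effectors of the GKS type (Iigp1, also called Irga6, and the Tgtp proteins, also called Irgb6), which the regulators hold inactive there. IL-4 signals through a different factor, STAT6, and drives activated B cells towards IgG1 and IgE.

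The promoters of the genes are shown first, and whether their motifs bear on the changes described below was not tested. The RefSeq table for GRCm38.p6 held promoters of 7 of the 9 genes, 250 bases before to 50 bases after each start. The 7 include Tgtp1, whose change was not tested, and lack Gbp6 and Iigp1. A script searched both strands for GAAANNGAAA, the core of the interferon-stimulated response element (ISRE) bound by factors of the IRF family. All 7 genes had at least 1 match, while 3.44% of the 32851 promoters in the table and 3.99% of its 27025 genes had one. Of the 8 other interferon-inducible GTPases in the table, 5 had a match. The runs below are written 5′ to 3′ on the strand of the gene, with capitals for the ISRE core matches; a match on the opposite strand reads as the reverse complement.
Gbp2, chr3:142620584-142620633, plus strand: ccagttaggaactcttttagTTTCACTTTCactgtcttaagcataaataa
Gbp3, chr3:142559979-142560034, plus strand: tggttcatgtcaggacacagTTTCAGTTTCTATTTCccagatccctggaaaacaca
Gbp7, chr3:142530263-142530312, plus strand: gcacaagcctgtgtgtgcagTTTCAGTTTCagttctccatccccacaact
Irgm1, chr11:48871415-48871470, minus strand: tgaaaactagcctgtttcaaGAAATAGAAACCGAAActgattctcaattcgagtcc
Irgm2, chr11:58214893-58214942, plus strand: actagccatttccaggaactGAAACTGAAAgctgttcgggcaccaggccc
Igtp, chr11:58199502-58199551, plus strand: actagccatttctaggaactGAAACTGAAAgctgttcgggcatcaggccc
Tgtp1, chr11:48992294-48992343, minus strand: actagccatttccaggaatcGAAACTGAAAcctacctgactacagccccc

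The ISRE core lay close to the start in every gene with a promoter in the table. The match nearest to a start was that of Irgm1, which ended at -15, and the farthest was that of Tgtp1, which began at -77. Gbp3 and Irgm1 each held 2 overlapping matches. The second annotated start of Gbp3 held none. A second motif, TTCNNNGAA, is the palindromic site of STAT dimers (GAS) and was found in 4 of the 7 genes (Gbp7, Irgm2, Igtp and Tgtp1) in 3 of the 8 other interferon-inducible GTPases and in 8.3% of all promoters. In Irgm2, Igtp and Tgtp1 it stands just before the ISRE core and shares no base with it. The variant with a gap of 1 base more, TTCNNNNGAA, which STAT6 prefers, was found in 1 of the 7 genes, at the second start of Gbp3, and in 6.95% of all promoters. Counted by gene, as the members are, the GAS motif was found in 9.55% of the genes in the table and the variant in 8.01%. A match describes the letters only, and binding was not measured.

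**Figure D1:**
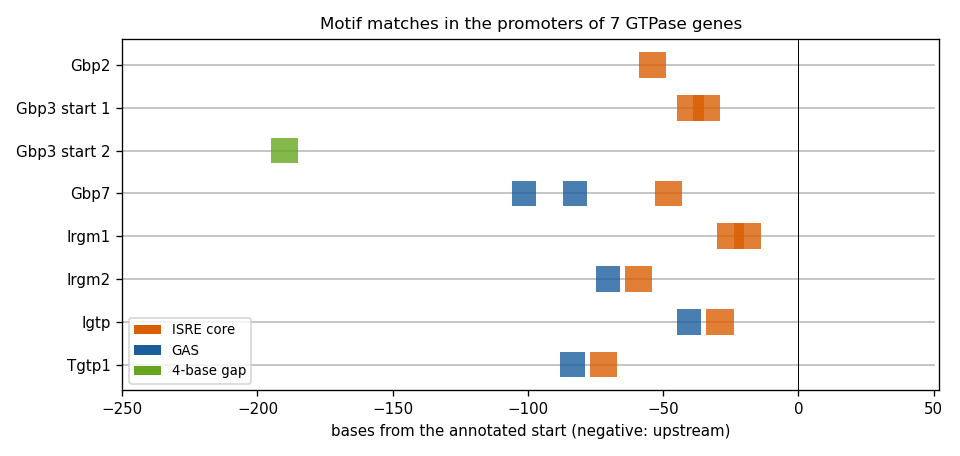
Positions of the motif matches on either strand in the promoters of 7 GTPase genes, in bases from the annotated start (RefSeq, GRCm38.p6). Each grey line is a promoter; coloured blocks mark the ISRE core, the GAS motif and the variant with a 4-base gap. Every gene has an ISRE core match between -77 and -15.

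Before the genes are described, the groups were checked. Stat6, by its brightest probe, stood between 3.11 and 3.42 on the 6 wild-type arrays and between 1.13 and 1.59 on the 6 knockout arrays, in log2 of the signal over the 75th percentile of the array, the scale used throughout. All 7 B-cell markers, with Cd79a, Cd79b, Ms4a1, Pax5, Cd22 and Blnk among them, were well above background on all 12 arrays. Across genes, replicate arrays correlated at 0.994 to 0.998. Between 40.7% and 44% of the spots of an array were well above background, none was saturated, and 3 arrays per group limit the precision. The arrays lay on 2 slides: the first carried every wild-type array with knockout controls 1 and 2, while the second carried the knockout IL-4 arrays with knockout control 3. For the GTPases, comparisons that include knockout IL-4 are therefore given again with slide as a block, and for the gene lists their counts in the knockout are.

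In wild-type B cells most of the GTPases fell with IL-4, and Gbp3, Gbp2 and Irgm1 fell furthest. Of the 8 genes tested, 6 fell and 0 rose at an adjusted p under 0.05 in limma, with Benjamini-Hochberg adjustment over all 16497 genes. Among all genes tested 30.8% fell and 26.4% rose, so a fall of this kind was common on these arrays. The size of the falls was less common: 3 of the 8 fell at least 2-fold, against 6.95% of all genes. The median change of the 8 genes was -0.77 on the log2 scale, and that of all genes was -0.04. Fewer cells that express a gene and less RNA per cell cannot be told apart in bulk RNA.

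Among the regulators, Irgm1 moved most. Irgm1 controls the effector GTPases and the clearance of intracellular bacteria. It measured 3.19, 3.34 and 3.27 on the wild-type control arrays and 1.34, 1.44 and 1.35 with IL-4. In the knockout it measured 3.33, 3.18 and 2.96 without IL-4 and 3.45, 3.46 and 3.18 with it. The wild-type IL-4 arrays stood far below the other 9, which overlapped each other across groups. In wild type Irgm1 fell by 1.89 ± 0.10 (SE), 3.70-fold, with an adjusted p of 9.74e-08 in limma. A second Irgm1 probe fell by 1.89 ± 0.09.

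Igtp, a regulator that sits on the endoplasmic reticulum and on lipid droplets, moved less. Its probe was printed on 10 spots per array, whose mean was used. It measured 3.04, 3.20 and 3.17 in wild type and 2.53, 2.48 and 2.39 with IL-4, against 3.05, 2.97 and 2.83 in the knockout and 3.18, 3.20 and 3.16 in the knockout with IL-4. The wild-type IL-4 arrays were again lowest and did not overlap with any other group. The fall in wild type was 0.67 ± 0.07, 1.59-fold, with a limma adjusted p of 1.21e-05.

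Irgm2, the Golgi-associated regulator, had the smallest fall among the genes that fell. It measured 0.73, 0.78 and 0.71 in wild type, 0.31, 0.37 and 0.39 with IL-4, 0.51, 0.44 and 0.41 in the knockout and 0.74, 0.67 and 0.45 in the knockout with IL-4. In this gene the knockout controls stood between the wild-type groups and overlapped with neither. It fell by 0.38 ± 0.07 in wild type, 1.30-fold, with a limma adjusted p of 0.000949.

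Iigp1 and the probe named Tgtp1 were dim. Iigp1, which is recruited to vacuoles and vesiculates their membrane, was well above background on 7 of 12 arrays: 2 wild-type controls, 2 wild-type IL-4 arrays, no knockout control and all 3 knockout IL-4 arrays. Its signal ran from -4.24 to -3.37 in wild type, from -3.50 to -3.35 with IL-4, from -3.81 to -3.46 in the knockout and from -3.34 to -3.32 in the knockout with IL-4. The change with IL-4 in wild type was 0.25 ± 0.19 (limma adjusted p = 0.28). In the knockout the change was 0.28 ± 0.19 (limma adjusted p = 0.259), fitted against controls of which none was well above background. Iigp1 passed the filter only through the knockout IL-4 group. Its second probe was well above background on no array.

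Tgtp1, also an effector, was well above background on 0 of 12 arrays and was not tested. A probe named Tgtp2, after the near-identical neighbour of Tgtp1, was bright, while a second probe of that name was well above background on 0 of 12 arrays. The bright probe measured 3.07, 3.17 and 3.08 in wild type and 0.13, 0.16 and 0.03 with IL-4. The knockout arrays gave 3.21, 3.27 and 3.17, and with IL-4 3.09, 3.20 and 3.13. The wild-type IL-4 arrays alone were low. The fall in wild type was 3.00 ± 0.05, with a limma adjusted p of 4.92e-11. The files list RefSeq transcripts of both Tgtp1 and Tgtp2 for the dark probe named Tgtp1 and for the bright probe named Tgtp2, so the signal of the bright probe cannot be told apart between the genes. The probes are given with their mm9 positions from the files.
Tgtp1-named probe, chr11:48799587-48799646, minus strand: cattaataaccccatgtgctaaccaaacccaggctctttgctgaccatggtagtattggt
Tgtp2-named probe, chr11:48871837-48871896, minus strand: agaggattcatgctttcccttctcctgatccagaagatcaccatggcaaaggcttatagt

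Of the GBPs, Gbp3 had the largest fall. Gbp3 lies in the GBP gene cluster of chromosome 3 together with Gbp2 and Gbp7. It measured 5.03, 5.22 and 5.12 in wild type and 2.56, 2.60 and 2.63 with IL-4. In the knockout it measured 4.93, 4.73 and 4.46, and with IL-4 5.14, 5.15 and 5.04. The wild-type IL-4 arrays were separate from all others, and the knockout controls stood below both the wild-type controls and the knockout IL-4 arrays. Gbp3 fell by 2.53 ± 0.10 in wild type, 5.77-fold, with a limma adjusted p of 1.12e-08. Of the 16497 genes tested, 212 had a lower change.

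Gbp2, a lipid-anchored GBP that coats vacuoles and bacteria, was also lowest in the wild-type IL-4 group. Its 3 wild-type control arrays gave 3.66, 3.70 and 3.75 and the IL-4 arrays 1.70, 1.74 and 1.72. The knockout controls gave 3.71, 3.54 and 3.32 and the knockout IL-4 arrays 3.81, 3.64 and 3.63. The knockout groups overlapped with each other and with the wild-type controls. Gbp2 fell by 1.98 ± 0.09 in wild type, 3.95-fold, with a limma adjusted p of 3.08e-08.

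Gbp7, linked in macrophages to assembly of the NADPH oxidase on vacuoles, moved in both genotypes. It measured 0.58, 0.79 and 0.78 in wild type and -0.10, -0.15 and -0.20 with IL-4. Knockout arrays gave 0.66, 0.57 and 0.33, and with IL-4 1.20, 1.11 and 1.03. The knockout IL-4 arrays were above every other array and the wild-type IL-4 arrays below. The change in wild type was -0.87 ± 0.09, 1.83-fold lower, with a limma adjusted p of 1.64e-05. A second Gbp7 probe was well above background on no array.

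**Figure D2:**
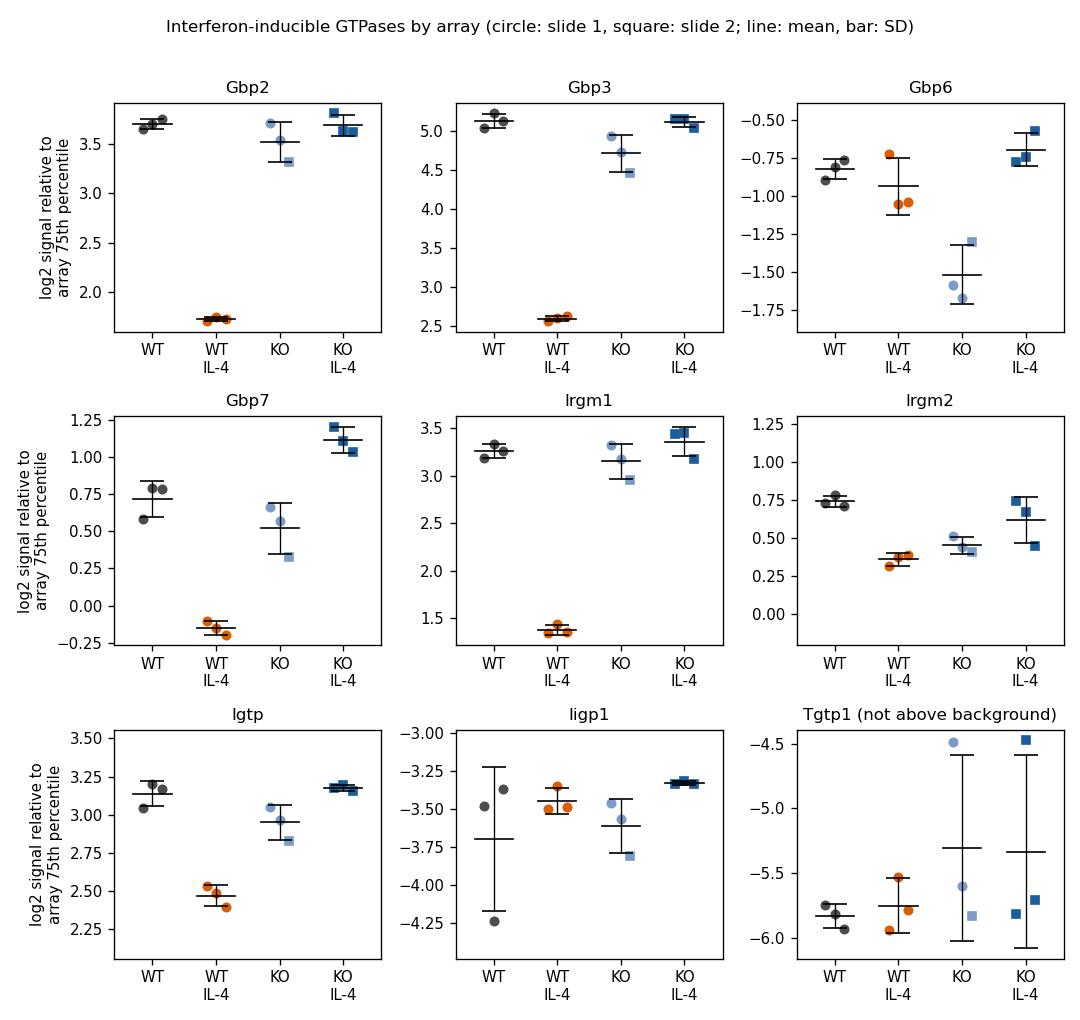
Signal of the 9 GTPases on each of the 12 arrays, in log2 relative to the 75th percentile of the array; every panel has its own axis. Points are arrays (circles on slide 1, squares on slide 2), lines are group means and bars are SD (n = 3). WT is wild type and KO is STAT6 knockout. In Gbp2, Gbp3, Gbp7, Irgm1 and Igtp the wild-type IL-4 arrays lie below all others; Tgtp1 was not well above background on any array.

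Gbp6 gave different answers by probe. It had 2 kept probes, whose starts lie 2072 bases apart on chromosome 5. Probe A had the higher mean over all 12 arrays, which is the rule used for every gene, and so it stands for Gbp6. That mean takes in the low values of probe B in wild type with IL-4. The listed RefSeq transcripts of probe A belong to Gbp6 alone, and probe B lists transcripts of both Gbp6 and the neighbouring Gbp10. Both are given with mm9 positions because the result for Gbp6 depends on which is read.
Gbp6 probe A, chr5:105700056-105700115, minus strand: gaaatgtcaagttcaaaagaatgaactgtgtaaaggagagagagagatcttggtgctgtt
Gbp6 probe B, chr5:105702128-105702187, minus strand: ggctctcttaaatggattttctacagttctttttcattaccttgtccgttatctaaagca

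Probe A measured -0.90, -0.81 and -0.76 in wild type and -0.72, -1.06 and -1.04 with IL-4. In the knockout it measured -1.58, -1.67 and -1.30, and with IL-4 -0.77, -0.74 and -0.57. The wild-type groups overlapped, and the knockout controls were lowest. Its change in wild type was -0.11 ± 0.11 with a limma adjusted p of 0.411.

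Probe B measured -1.03, -0.95 and -0.78 in wild type and -3.03, -2.65 and -2.93 with IL-4. The knockout gave -1.31, -1.13 and -1.25, and with IL-4 0.00, -0.19 and -0.21. Here the wild-type IL-4 arrays were far below all others and the knockout IL-4 arrays above all others. Probe B fell by 1.95 ± 0.11 in wild type, with a limma adjusted p over all probes of 1.41e-07. The probe named Gbp10, which also lists both genes, fell by 0.69 ± 0.13 (limma adjusted p over all probes = 0.00104). The files do not give a probe for Gbp10 alone, so the share of each gene in the signal of probe B was not tested.

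**Figure D3:**
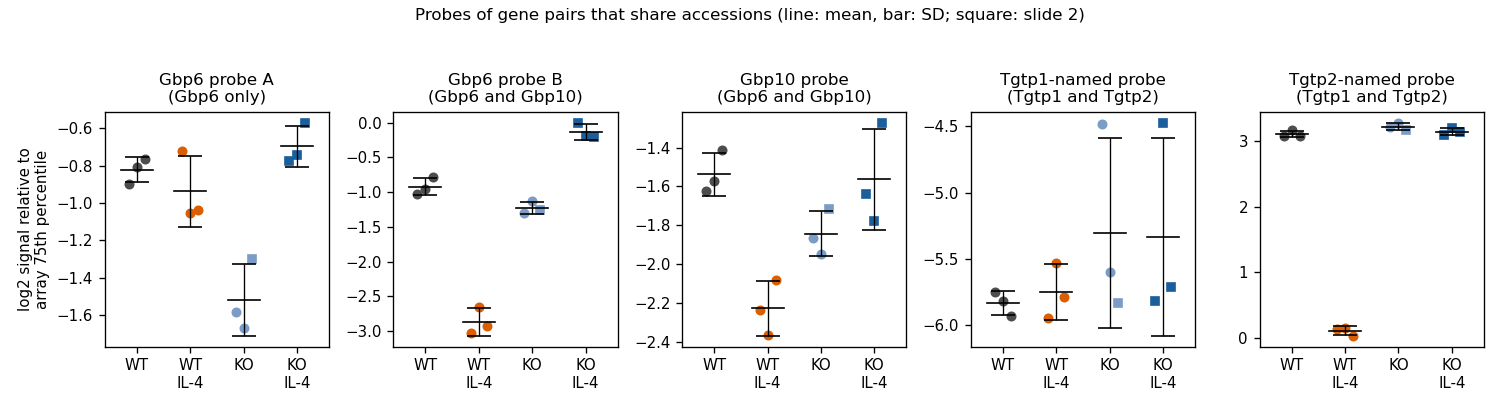
Signal of 5 probes of the gene pairs Gbp6 and Gbp10, and Tgtp1 and Tgtp2, by group, in log2 relative to the 75th percentile of the array, with the genes whose RefSeq transcripts the files list for each probe in brackets. Points are arrays (squares on slide 2), lines are means and bars are SD (n = 3). The fall with IL-4 in wild type is seen with Gbp6 probe B, the Gbp10 probe (-0.69) and the Tgtp2-named probe, and not with Gbp6 probe A, whose change was -0.11.

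In STAT6 knockout B cells the changes that passed the test were rises. None of the 8 genes fell with IL-4, and 4 rose: Gbp3, Gbp6, Gbp7 and Igtp. Among all genes 27.5% rose and 14.7% fell, and with arrays scaled to their median 35.8% rose and 7.76% fell. Gbp6 rose by 0.82 ± 0.11 (1.77-fold, limma adjusted p = 0.000305), Gbp7 by 0.59 ± 0.09 (1.51-fold, 0.000564), Gbp3 by 0.40 ± 0.10 (1.32-fold, 0.00991) and Igtp by 0.23 ± 0.07 (1.17-fold, 0.0204). Gbp2 (0.17 ± 0.09), Irgm1 (0.21 ± 0.10) and Irgm2 (0.17 ± 0.07) did not pass, with limma adjusted p of 0.164, 0.125 and 0.084. The median change was 0.26 for the 8 genes and 0.05 for all genes.

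Knockout control 3, the only control on the slide of the knockout IL-4 arrays, was the lowest control in Gbp2, Gbp3, Gbp7, Irgm1, Irgm2 and Igtp. With slide as a block, which sets the knockout IL-4 arrays against this array alone, 6 of the 8 genes rose, against 21.5% of all genes. The single control is assumed to vary like the other groups. In that fit Gbp2 and Irgm1 were called as well, at 0.38 (limma adjusted p = 0.015) and 0.40 (0.0275). Neither was called with replicate and slide blocks together (limma adjusted p of 0.0507 and 0.101), and by the authors' deposited gene-level values Gbp2 changed by -0.01. The rise of Igtp was lost without knockout control 3 (limma adjusted p = 0.0705), without knockout IL-4 array 1 (0.0513) and without knockout IL-4 array 2 (0.059). Igtp also lost its call with quantile scaling (0.10, limma adjusted p = 0.169), with the authors' deposited gene-level values (0.08, 0.316), with no filter on dim probes (0.0801), with only the compared arrays (0.0642) and with replicate and slide blocks together (0.0557). The call of Gbp3 was lost with only the compared arrays (0.0553).

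The difference between the IL-4 responses was tested directly, as the wild-type response minus the knockout response. It was negative and passed in 7 of the 8 genes, against 28.3% of all genes that were lower and 16.4% that were higher (28.6% and 10.3% with median scaling). The difference was -2.93 ± 0.14 for Gbp3, -2.15 ± 0.13 for Gbp2, -2.10 ± 0.14 for Irgm1, -1.46 ± 0.13 for Gbp7, -0.93 ± 0.16 for Gbp6, -0.89 ± 0.09 for Igtp and -0.55 ± 0.10 for Irgm2. It was -0.03 ± 0.27 for Iigp1. With slide as a block 7 of the 8 were lower again, against 26.3% of all genes. In 4 genes the difference was at least 2-fold, against 5.03% of all genes. Of the 7, Gbp6 differed through its rise in the knockout when read by probe A. By probe B its difference was -3.04 ± 0.15.

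**Figure D4:**
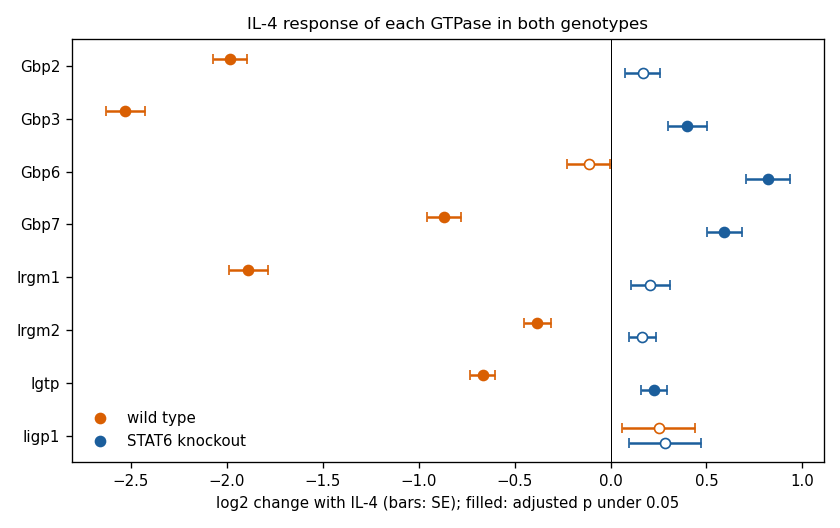
Change with IL-4 in wild type and in STAT6 knockout for the 8 GTPases tested, on the log2 scale; bars are SE from the limma model over all 12 arrays, and filled points have an adjusted p under 0.05. Wild-type values run from -2.53 (Gbp3) to 0.25 (Iigp1) and knockout values from 0.17 to 0.82.

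Without IL-4, fewer of these genes differed between the genotypes. Of the 8 genes, 3 were lower in the knockout and 0 were higher, against 6.96% and 4.73% of all genes (30.9% and 2.82% with median scaling). Gbp6 was lower by probe A, at -0.69 ± 0.11 (1.62-fold, limma adjusted p = 0.00811), Gbp3 at -0.42 ± 0.10 (0.0309) and Irgm2 at -0.29 ± 0.07 (0.0318). Only Gbp6 passed with slide as a block, where 1.62% of all genes were lower. The calls of Gbp3 and Irgm2 were each lost when any 1 of knockout controls 2 and 3 or wild-type controls 1, 2 and 3 was left out, with limma adjusted p of 0.0587 to 0.11, and the call of Gbp6 was lost when probe B was read (0.0845). The median difference was -0.19 for the 8 genes and -0.04 for all genes.

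With IL-4 the genotypes stood apart. Of the 8 genes, 6 were higher in the knockout and 0 were lower, against 29.8% and 21.3% of all genes. The differences were 2.51 ± 0.10 for Gbp3, 1.98 ± 0.10 for Irgm1, 1.97 ± 0.09 for Gbp2, 1.26 ± 0.09 for Gbp7, 0.71 ± 0.07 for Igtp and 0.26 ± 0.07 for Irgm2 (limma adjusted p from 1.42e-08 to 0.011). Gbp6 was not called by probe A (0.24 ± 0.11, limma adjusted p = 0.101), and by probe B it was 2.73 ± 0.11 higher (limma adjusted p over all probes = 1.34e-08). With slide as a block 5 of the 8 were higher, against 18.1% of all genes, and Irgm2 lost its call (limma adjusted p = 0.0828). These contrasts share arrays with those above, so they add no independent support.

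Most of the genes, though not Gbp6 or Iigp1, followed each other closely across the 12 arrays. Against Gbp2, the correlation over the 12 arrays was 0.996 for Gbp3, 0.996 for Irgm1, 0.961 for Igtp, 0.905 for Gbp7 and 0.721 for Irgm2. It was -0.04 for Gbp6 and -0.13 for Iigp1. The 12 arrays share 4 groups, which set most of these values, and no p is given. Of the genes outside the 9, those most like the mean profile of the 8 tested were Notch2, a Notch receptor (r = 0.995), Tlr4, the receptor for LPS (0.993), Sowahc (0.992), Cdc42ep3 (0.991) and Akna (0.991). Tlr4 fell by 1.11 in wild type and rose by 0.46 in the knockout. Notch2 fell by 0.66 and rose by 0.23. The profile was not particular to the family. Among all genes tested, Igtp ranked 8 in likeness to it, Gbp3 16, Irgm1 72, Gbp2 79, Gbp7 150 and Irgm2 2299. Gbp6 ranked 8044 and Iigp1 9387. The 8 tested genes make up the mean profile, and those with large changes weigh most in it. Their own ranks are therefore set in part beforehand and cannot be compared with those of genes outside it.

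The other interferon-inducible GTPases mostly fell in wild type as well. The list held 21 genes, 19 of them on the array and 16 tested. In wild type 13 of the 16 fell and 0 rose, against 30.8% and 26.4% of all genes, with a median change of -1.64, a value that did not move when 2 genes not well above background with IL-4 were set to their bounds. The 4 with the smallest adjusted p were 9930111J21Rik1 (-4.29 ± 0.07, limma adjusted p = 2.6e-11), Tgtp2, Gbp2b (-1.92 ± 0.06, 1.87e-09) and Mx2, an antiviral dynamin-like GTPase (-3.03 ± 0.12, 8.51e-09). In the knockout 5 rose and 2 fell, against 27.5% and 14.7% of all genes, with a median of 0.05. With slide as a block 4 rose and 0 fell. In that fit 21.5% of all genes rose and 11.8% fell in the knockout, shares that also apply to the lists below. The difference between the responses was negative in 13 of the 16 genes, against 28.3% of all genes, and positive in 0. In several of the shorter lists that follow, the shares lie near these percentages of all genes.

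The ligands were mostly dark. Of the 7 interferon genes of the list on the array, 6 were not tested, Ifnb1 and all listed Ifna genes among them. Ifng, the main inducer of these GTPases, measured -4.45, -4.18 and -5.02 in wild type and -3.32, -3.24 and -3.63 with IL-4. It was well above background only on the 3 wild-type IL-4 arrays, and it was at least 1.33-fold higher there than in the wild-type controls. Ifng passed the filter on dim probes only through this group, so no p is given. In the knockout it measured -4.83, -3.61 and -4.58, and with IL-4 -5.00, -4.76 and -5.49. Its mean signal was highest in the group in which most of the GTPases were lowest. Knockout control 2 (-3.61) nevertheless stood above wild-type IL-4 array 3 (-3.63), and signals below background do not rank the other groups.

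Receptors and kinases changed by small amounts. Of 7 tested, 3 rose and 3 fell in wild type, against 26.4% and 30.8% of all genes. In the knockout 3 rose and 0 fell, against 27.5% and 14.7% of all genes, and the counts were the same with slide as a block. Ifngr2, the signalling chain of the interferon-gamma receptor, rose by 0.45 ± 0.07 (limma adjusted p = 0.000257), and Ifngr1, its ligand-binding chain, changed by -0.13 ± 0.05 (0.0387). Ifnar2, of the type I interferon receptor, rose by 0.73 ± 0.06 in wild type and by 0.66 ± 0.06 in the knockout. The kinase Jak2 rose by 0.30 ± 0.04 and Jak1 fell by 0.35 ± 0.07.

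Of 10 transcription factors of the interferon response tested, 6 fell and 1 rose in wild type, against 30.8% and 26.4% of all genes, with a median of -0.46. Irf7, a driver of type I interferon genes, fell by 2.44 ± 0.11 in wild type and by 1.01 ± 0.11 in the knockout. Irf9, the DNA-binding subunit of the complex that binds the ISRE, fell by 0.60 ± 0.04 in wild type and rose by 0.40 ± 0.04 in the knockout, the same pair of directions as Gbp3, Gbp7 and Igtp. Irf2 fell by 0.70 ± 0.06, Irf8 by 0.51 ± 0.04 and Irf1, which binds ISRE sites itself, by 0.36 ± 0.06. In the knockout Irf1 rose by 0.22 ± 0.06, a call lost with slide as a block (0.11, limma adjusted p = 0.248). There 3 of the 10 rose and 2 fell, near the 27.5% and 14.7% of all genes, and with slide as a block 2 rose and 1 fell. Nlrc5, an activator of MHC class I genes, rose by 0.40 ± 0.06 in wild type and by 0.52 ± 0.06 in the knockout.

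Of 7 negative regulators tested, 4 rose and 3 fell in wild type, against 26.4% and 30.8% of all genes. In the knockout 4 rose and 1 fell, against 27.5% and 14.7% of all genes, and with slide as a block 4 rose and 0 fell. Socs1, an inhibitor of JAK kinases that curbs interferon-gamma signalling, measured 2.03, 2.12 and 2.12 in wild type and 4.18, 4.14 and 4.20 with IL-4. In the knockout it measured 1.82, 1.57 and 1.58, and with IL-4 2.36, 2.25 and 2.04. The wild-type IL-4 arrays were above all others, the reverse of most of the GTPases. Socs1 rose by 2.09 ± 0.09 in wild type and by 0.56 ± 0.09 in the knockout. Socs3 rose by 2.64 ± 0.17 in wild type, with 0.05 ± 0.17 in the knockout (limma adjusted p = 0.84). Usp18, an interferon-induced brake on the type I receptor, fell by 2.96 ± 0.12 in wild type and rose by 0.55 ± 0.12 in the knockout, and the phosphatase Ptpn6 fell by 0.93 ± 0.05 in wild type.

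Other targets of interferon-gamma were divided. Of 14 tested, 7 fell and 3 rose in wild type, against 30.8% and 26.4% of all genes, with a median of -0.34. In the knockout 9 rose and 1 fell, against 27.5% and 14.7%, and the counts were again 9 and 1 with slide as a block. Cybb, the membrane subunit of the NADPH oxidase, fell by 1.03 ± 0.05 and the immunoproteasome subunits Psmb9 and Psmb10 by 0.64 ± 0.05 and 0.56 ± 0.09. Gch1, the first enzyme of tetrahydrobiopterin synthesis, rose by 1.39 ± 0.14. Tbx21, which encodes the factor T-bet, was well above background on none of the wild-type arrays, on 2 of the 3 knockout controls and on all 3 knockout IL-4 arrays. It passed the filter only through the knockout IL-4 group, so its fitted change of 2.48 ± 0.33 in the knockout is not independent of the filter. It is counted among the genes that rose there. It is also counted among the 7 that fell in wild type, where both groups were not well above background, so that call is not a measured fall. With IL-4 it was at least 7.96-fold higher in the knockout than in wild type.

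Of 12 tested genes of the autophagy machinery that loads these GTPases onto membranes, 4 rose and 3 fell in wild type, against 26.4% and 30.8% of all genes, with a median of 0.10. Map1lc3a, which encodes a membrane-coupled ubiquitin-like protein, rose by 1.74 ± 0.07 and Gabarapl1, of the same family, by 0.96 ± 0.06. Atg3, the enzyme that couples them to lipid, rose by 0.37 ± 0.07, and Gabarap by 0.22 ± 0.05. In the knockout 3 rose and 4 fell, against 27.5% and 14.7% of all genes, and with slide as a block 2 rose and 2 fell.

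**Figure D5:**
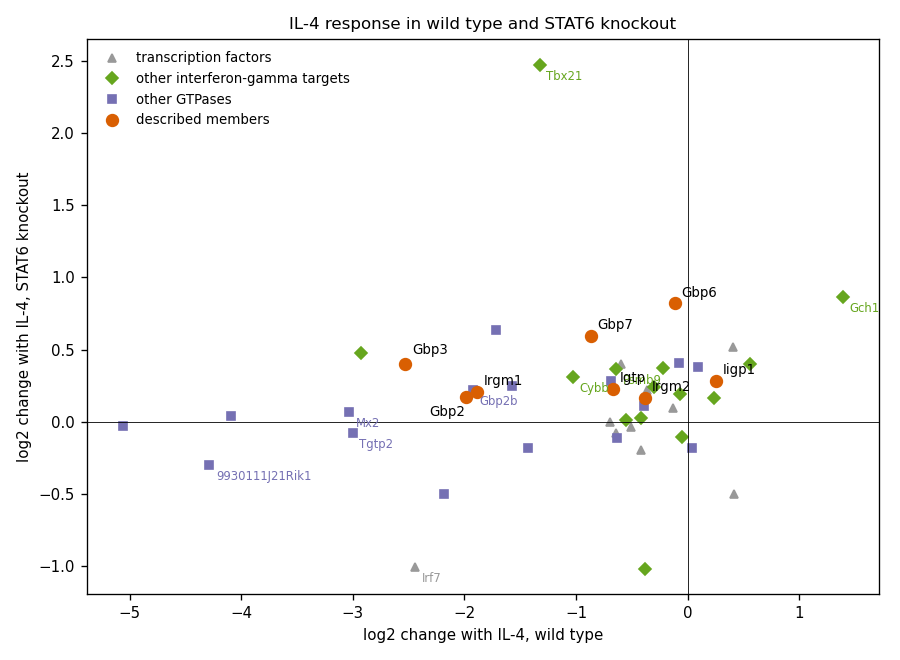
Change with IL-4 in STAT6 knockout (vertical axis) against wild type (horizontal axis), both on the log2 scale, for the 8 GTPases tested, 16 other interferon-inducible GTPases, 10 transcription factors of the interferon response and 14 other interferon-gamma targets; genes named in the text are labelled in part. Fitted values of genes not well above background in a group are shown as fitted. Most GTPases lie left of 0 on the horizontal axis and near or above 0 on the vertical axis.

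Markers of other cell types moved with some of these results. The summed level of the 6 macrophage and monocyte markers on the array, in linear units of the 75th percentile, ran from 35.0 to 36.6 in wild type, 23.8 to 24.8 with IL-4, 35.6 to 39.1 in the knockout and 40.4 to 43.7 in the knockout with IL-4. Like most of the GTPases, the sum was lowest in the wild-type IL-4 group. Emr1 weighs most in this linear sum, with a log2 mean of 4.50 in the wild-type controls against 2.75 for Cd68 and 2.41 for Itgam. Of its 5 tested genes 2 fell in wild type, Emr1 by 0.92 and Cd68 by 0.45, and 1 rose, Cd14 by 0.38 (limma adjusted p = 0.0216). Csf1r changed by -0.12 (limma adjusted p = 0.593) and Itgam by 0.17 (0.254). In the knockout Emr1 rose by 0.55 while Cd68 fell by 0.92, and the other 3 did not pass. The 10 T-cell markers summed to between 8.22 and 8.85 in wild type, 4.77 and 5.02 with IL-4, 6.78 and 7.95 in the knockout and 3.97 and 4.21 in the knockout with IL-4. Its members were divided. Of 8 tested in wild type, Cd5 fell by 2.19 and Cd6 by 1.71, while Cd28 rose by 1.84 and Cd3d by 0.73. The rest of the 8 were not called. The 7 NK-cell markers ran from 5.60 to 6.40, 4.60 to 4.95, 5.07 to 5.54 and 4.21 to 4.58 in the same order of groups, and Ncr1, Klrb1c, Klrd1 and Klre1 were well above background on no array. The 7 B-cell markers summed to between 1204 and 1235, 1282 and 1315, 1088 and 1152, and 1155 and 1220. Although this sum was highest in wild type with IL-4, 4 of the 7 fell there and 2 rose, against 30.8% and 26.4% of all genes. The 7 dendritic-cell markers ran from 112.8 to 136.5, 133.5 to 142.3, 138.6 to 148.3 and 130.8 to 151.9, and the 5 neutrophil markers from 66.5 to 81.3, 82.2 to 98.5, 85.9 to 89.0 and 69.9 to 88.4. The 5 mast-cell and basophil markers ran from 0.401 to 0.462, 0.104 to 0.131, 0.378 to 1.08 and 0.287 to 0.488. This sum too was lowest in wild type with IL-4, and 3 of the 5 were well above background on no array. Only Kit was tested. It fell at least 5.04-fold in wild type and by 0.76 on the log2 scale in the knockout. The part of other cell types in the results was not tested.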

How the data were processed

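Agilent Feature Extraction 10.7.3.1 produced the deposited scanner files, per the file headers. Per the file headers, the authors' software subtracted background from each spot to give its processed intensity, and mean and background intensities and flags are listed beside it. The authors also deposited gene-level log2 values, described in that file's header as corrected for background and quantile-normalised, which served as an alternative. The log2 of each processed intensity was taken, minus the array's own 75th percentile over 59305 non-control spots. Outlier-flagged spots were dropped and the rest averaged by probe, giving 55681 probes. The filter retained 22940 probes, those well above background throughout at least 1 group of 3 arrays. The brightest retained probe stood for its gene. A limma 3.58.1 model (R 4.3.3) of the 4 group means was fitted to all 12 arrays and tested in 5 contrasts, with Benjamini-Hochberg adjustment over 16497 genes in each. A gene is called at an adjusted p under 0.05, whatever the size of the change, and the words rose, fell, higher and lower are used of calls. Errors with ± are SE. A bound ("at least") takes, for each dim array, the higher of the probe's own signal and the lowest signal well above background.

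The members and the gene lists were chosen with earlier results of these data known. The genes named are all members, Stat6, up to 4 genes per list with the smallest adjusted p in the wild-type contrast, 10 further genes of the interferon response, and the 5 genes most like the members. Gbp10 and the markers Emr1, Cd68, Csf1r, Cd14, Itgam, Cd5, Cd6, Cd28, Cd3d and Kit were named after their values had been seen. Some listed genes enter the counts of their lists and are not reported here by name. Promoter sequences are from RefSeq (GRCm38.p6), and probe sequences and mm9 positions are from the scanner files. A planned comparison of protein sequences was not run. The fitting step was tested on simulated data. Other tools were jsonlite 2.0.0 and the data.table package (1.17.8) in R, and pandas 2.3.3 and matplotlib 3.10.9 in Python 3.11.15. Alternatives covered scaling, background correction, the filter, probe choice, slide, replicate number, variance settings and leaving out each array.

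Replicate numbers were not used as pairs: deviations of arrays with the same number correlated at -0.24 to 0.39, and those with different numbers at -0.47 to 0.31.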

Additional observations from a re-analysis of the deposited data

Results flagged for a closer look

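The response to IL-4 differed between the genotypes, by a test of the difference itself, in 7 of the 8 GTPases tested. The difference was negative in all 7, against 28.3% of all genes with a negative difference and 16.4% with a positive one. Wild-type response minus knockout response was -2.93 for Gbp3 (limma adjusted p = 1.35e-07), -2.15 for Gbp2 (5.81e-07), -2.10 for Irgm1 (1.46e-06) and -1.46 for Gbp7 (9.82e-06), all on the log2 scale. It was -0.93 for Gbp6 (0.00103), -0.89 for Igtp (4.01e-05) and -0.55 for Irgm2 (0.0015). Groups of 3 arrays are too small for the outlier test used in larger groups.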

How the results depend on the processing

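Of the recomputed changes of single genes, 937 kept their direction and their side of the threshold, 33 lost a call, 22 gained one, and 11 changed sign with no call on either side, 8 of them Iigp1. None that was called reversed. In wild type the count of 6 that fell, and in the difference between genotypes the count of 7, stayed at 6 and 7 in every fit that left out 1 array, and were 3 and 4 with a minimum of 2-fold. The count of 4 that rose in the knockout was 2 with only the compared arrays, 0 at 2-fold and 3 to 6 without 1 array. The count of 3 lower in the knockout without IL-4 was 6 with median scaling, 1 with no filter on dim probes, 1 with slide as a block, 1 with the replicate block and slide together, 0 at 2-fold and 1 to 5 without 1 array (lower than 3 without either knockout control 2 or 3 or any wild-type control). Median scaling shifted the median of all genes to -0.22 in that contrast and to 0.20 in the knockout response, so its values hold relative to these medians. With the replicate block the counts were 6, 4, 7 and 3 in these contrasts. Read by probe B, an alternative chosen after seeing the data, Gbp6 fell in wild type (-1.95). The mean of both probes gave -1.03 and the authors' deposited gene-level values gave -0.53, both called. Other fits did not call it. The cause of these shifts was not tested. Signal near background limits Iigp1 and Tgtp1.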
